A study of Mus musculus with 4 samples.

Results

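Chromatin accessibility was examined around 8 genes whose products coat, fuse or form lipid droplets: the perilipins Plin1, Plin2, Plin3, Plin4 and Plin5, the CIDE genes Cidea and Cidec, and Fitm2. Every ATAC-seq peak whose summit lay within 50 kb of an annotated transcription start site (TSS) of one of these genes in mm9 was taken, and peaks of the 4 deposited lists that overlapped by at least 1 bp were merged into a site. This gave 288 of 239709 peaks, in 101 of 100608 sites. Plin4 and Plin5 are neighbours, and 19 sites lay in the windows of both.

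ATAC-seq maps open chromatin through the insertion of adapters by the Tn5 transposase. The cells, im-scWAT, were stromal vascular cells from the subcutaneous white fat of 5-week-old mice, immortalised with a retrovirus for SV40 large T antigen and selected with puromycin. WT cells were Jmjd1a +/+ and HY cells Jmjd1a HY/HY, a knock-in that takes away the activity of this histone H3 lysine 9 demethylase. D0 was before differentiation, and D8 followed a beige adipocyte protocol given alike to both genotypes (indomethacin, dexamethasone, 3-isobutyl-1-methylxanthine, rosiglitazone, insulin and T3 for 2 days, then insulin, T3 and rosiglitazone for 6 days). Each combination of genotype and day had 1 library. Differences are therefore between libraries and have no test, genotype and culture cannot be told apart, and no interval covers variation between cultures. Intervals of ratios cover counting error only. Those of shares treat sites as independent, although many lie side by side, and may be too narrow. A larger share of cells with open chromatin and more open chromatin per cell cannot be told apart in such bulk libraries, and peak lists do not show the HY allele itself.

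A lipid droplet is a core of neutral lipid under a phospholipid monolayer, formed at the endoplasmic reticulum. Perilipins sit on its surface and regulate the access of lipases. CIDE proteins gather where droplets touch and pass lipid from the smaller to the larger one. White fat cells hold a large droplet coated with PLIN1 and CIDEC, while brown and beige fat cells hold many small ones and express Cidea. Several of these genes are known targets of PPARG, the nuclear receptor that rosiglitazone activates.

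The sequences below show what lies under D8 peaks shared by both genotypes at Plin1, Cidec, Plin4 and Plin2, under the Plin5 promoter peak that was listed in WT only, and, for contrast, under a D0 peak of Plin2. They were picked by hand, with results of these data known, and are not a typical sample: 5 of the 6 shared D8 windows shown hold a C/EBP match, whereas 6 of all 21 such sites do. Each is 201 bases of the mm9 reference, plus strand, centred on the summit of the site. Capitals mark matches on either strand to C/EBP (TTGCNNAA), EBF (CCCNNGGG), the NFI site (TTGGCA) or AP-1 (TGANTCA). The letters of the NFI site, here and below, are only a part of the full NFI site. From left to right, the Plin1 promoter window, chr7:86877672-86877872, held C/EBP, EBF and C/EBP matches. The Plin1 -7.72 kb window, chr7:86885285-86885485, held C/EBP. The Cidec +0.73 kb window, chr6:113384924-113385124, held EBF, C/EBP and NFI. The Cidec -3.10 kb window, chr6:113388749-113388949, held C/EBP. The Plin4 -0.92 kb window, chr17:56250043-56250243, held NFI. The Plin2 -20.3 kb window, chr4:86336160-86336360, held C/EBP. The Plin5 promoter window, chr17:56256911-56257111, held AP-1, and the D0 window of Plin2 at -16.7 kb, chr4:86332587-86332787, held NFI and AP-1.
Plin1 promoter: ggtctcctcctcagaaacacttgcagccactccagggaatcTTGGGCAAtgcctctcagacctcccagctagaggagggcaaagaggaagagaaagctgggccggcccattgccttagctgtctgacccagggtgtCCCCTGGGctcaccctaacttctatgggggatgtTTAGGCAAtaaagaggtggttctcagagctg
Plin1 -7.72 kb: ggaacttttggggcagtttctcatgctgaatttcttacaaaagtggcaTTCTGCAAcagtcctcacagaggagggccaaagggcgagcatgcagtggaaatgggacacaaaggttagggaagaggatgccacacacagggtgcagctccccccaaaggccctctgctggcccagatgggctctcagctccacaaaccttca
Cidec +0.73 kb: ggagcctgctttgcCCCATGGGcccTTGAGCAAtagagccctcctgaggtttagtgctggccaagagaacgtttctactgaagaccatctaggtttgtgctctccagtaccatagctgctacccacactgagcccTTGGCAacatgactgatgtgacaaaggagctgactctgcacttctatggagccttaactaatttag
Cidec -3.10 kb: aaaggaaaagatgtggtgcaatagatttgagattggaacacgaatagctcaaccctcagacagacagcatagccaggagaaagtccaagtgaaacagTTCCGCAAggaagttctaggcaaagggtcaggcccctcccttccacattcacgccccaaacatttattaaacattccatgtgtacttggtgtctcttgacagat
Plin4 -0.92 kb: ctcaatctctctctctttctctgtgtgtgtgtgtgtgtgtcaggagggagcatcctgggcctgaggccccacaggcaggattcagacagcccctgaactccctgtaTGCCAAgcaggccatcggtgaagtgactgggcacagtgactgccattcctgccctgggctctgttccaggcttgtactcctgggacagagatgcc
Plin2 -20.3 kb: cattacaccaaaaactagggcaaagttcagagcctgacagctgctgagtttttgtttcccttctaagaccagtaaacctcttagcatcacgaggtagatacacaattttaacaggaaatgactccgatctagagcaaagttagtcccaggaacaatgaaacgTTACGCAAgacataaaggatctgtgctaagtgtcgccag
Plin5 promoter: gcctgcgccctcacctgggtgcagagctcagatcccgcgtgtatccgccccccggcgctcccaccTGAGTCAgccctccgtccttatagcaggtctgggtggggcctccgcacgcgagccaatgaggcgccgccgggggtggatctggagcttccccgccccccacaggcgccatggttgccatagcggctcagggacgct
Plin2 -16.7 kb: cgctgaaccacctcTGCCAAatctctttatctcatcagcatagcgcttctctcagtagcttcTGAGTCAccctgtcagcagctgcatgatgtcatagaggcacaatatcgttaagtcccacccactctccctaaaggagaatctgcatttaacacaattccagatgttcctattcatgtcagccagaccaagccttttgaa

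Distances run from the 5'-most TSS in the direction of the gene, negative upstream, to the summit with the highest -log10 q of the site. Peak height is the pileup at the summit, in tags, solved from the deposited fold and -log10 p. The same solution gave the local background and with it the number of tags in the 10 kb around the summit. The background rate, the pileup at an average position of the genome, stood for depth: 0.659 tags for WT D0 and 0.531 for WT D8, against 0.708 for HY D0 and 0.494 for HY D8. Ratios between libraries were divided by the ratio of these rates. The rate of a library was also the lowest background solved in it. At peaks with that background, the 10-kb number is the rate itself and not a count. The D0 peaks at Plin1 -10.4 kb (73 tags in WT, 79 in HY) are examples. Where a list has no peak, the pileup is unknown but lay below the call, and the pileup a call would have needed is given where a background could be taken from a peak of the same library within 5 kb. For D8 peaks listed in 1 genotype, the needed pileup was taken at the background of the listed peak instead, scaled to the depth of the other library. These are estimates of an unmeasured background.

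The labels were checked against promoter peaks of marker genes. Of 8 adipocyte markers, 5 had a promoter peak at D0 and 7 at D8, in WT as in HY, and those of Adipoq and Fabp4 were listed at D8 only. Of 8 preadipocyte and fibroblast markers, 7 had one in WT D0 and 6 in HY D0, against 3 in each D8 library. Of 4 thermogenic markers, 1 had a promoter peak at D0 and 2 at D8, in WT as in HY. Elovl3 was listed in every library and Ppargc1a at D8 only, with 14 tags in WT and 15 in HY, while Dio2 and Ucp1, the defining gene of thermogenic fat cells, had none in any library. The 4 macrophage and leukocyte markers had none. Of 4 liver and neuron markers, 1 had a promoter peak, in HY D0 alone (Rbfox3, 16 tags). Of 4 endothelial markers, 3 had one in WT D0 and 2 in HY D0, against 0 and 1 at D8, and their part in the day comparison was not tested.

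The surroundings of the 8 genes carried more peaks at D8 than at D0, although the D8 lists were shorter. Each D8 list held 82 of the peaks and each D0 list 62. In WT, 32 of 87 sites (36.8%, exact 95% interval 26.7 to 47.8) had a peak at D8 and none at D0, where 12.1% of all sites did. In HY, 29 of 90 sites did (32.2%, interval 22.8 to 42.9), where 13.7% of all sites did. A peak at D0 and none at D8 was found at 19 of 87 sites (21.8%) in WT, against 52.7% of all sites, and at 20 of 90 (22.2%) in HY, against 49.3%. D8-only sites were thus more frequent near these genes than in the genome, and D0-only sites less frequent, as in each alternative run, but the gap and the order of the counts moved. Where 1 peak had to cover at least 50% of the other, and peaks were counted, D8-only peaks were 40.2% of 82 in WT and 39.0% of 82 in HY, against 27.8% and 28.9% of all. D0-only peaks were then 59.7% of 62 in WT and 56.5% of 62 in HY, against 73.9% and 72.6%, so that with 37 and 35 they outnumbered the 33 and 32 D8-only peaks. In HY, D0-only sites also outnumbered D8-only sites within 100 kb (35 to 32) and at a -log10 q of at least 5 (20 to 18). Within 100 kb these were 25.7% and 23.5%, against 49.3% and 13.7% of all sites. At that -log10 q they were 28.2% and 25.4%, against 52.3% and 11.8%.

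Most sites had the same pattern in both genotypes. A peak at D8 in both genotypes and at D0 in neither was found at 21 of 101 sites, against 5.99% of all sites. A peak at D0 only, in both, was found at 12 sites, against 24.6%, and a peak in all 4 libraries at 34, against 24.2%. The other 34 sites had another pattern. The 21 shared D8-only sites were tall, with a median pileup of 26.0 in WT and 25.0 in HY, where the 6031 such sites of the genome had 12.0 and 13.0. The 10 kb around them held a median of 7.29 (WT) and 6.39 (HY) times the genome-wide rate of tags, where those of the genome had 1.83 and 1.89 times. They lay in introns (9), between genes (10) and in exons (2), and a member had the nearest coding TSS for 11 of them.

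By gene, D8-only sites were found near 7 of 8 members in WT and 6 of 8 in HY, where 38.5% and 43.8% of 22367 protein-coding genes had any. Plin1 had 8 in WT and 7 in HY, Plin4 had 8 and 8, and Plin5 had 7 and 7, several of them shared with Plin4. Cidec had 6 and 6, Plin2 5 and 6, Fitm2 3 and 2, and Cidea 2 and 0. Plin3 had 0 in both genotypes, and 9 of its 12 sites had a peak in all 4 libraries. In WT, the counts of Plin1 and Plin4 were above those of 99.6% of coding genes, and the median coding gene had 0. These genes also had many sites of any kind, 17 for Plin1, above 89.8% of coding genes, and 20 for Plin4, where the median coding gene had 7. Each of the 8 members also had a D0-only site, in both genotypes, as did 75.7% of coding genes in WT and 78.1% in HY.

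**Figure D1:**
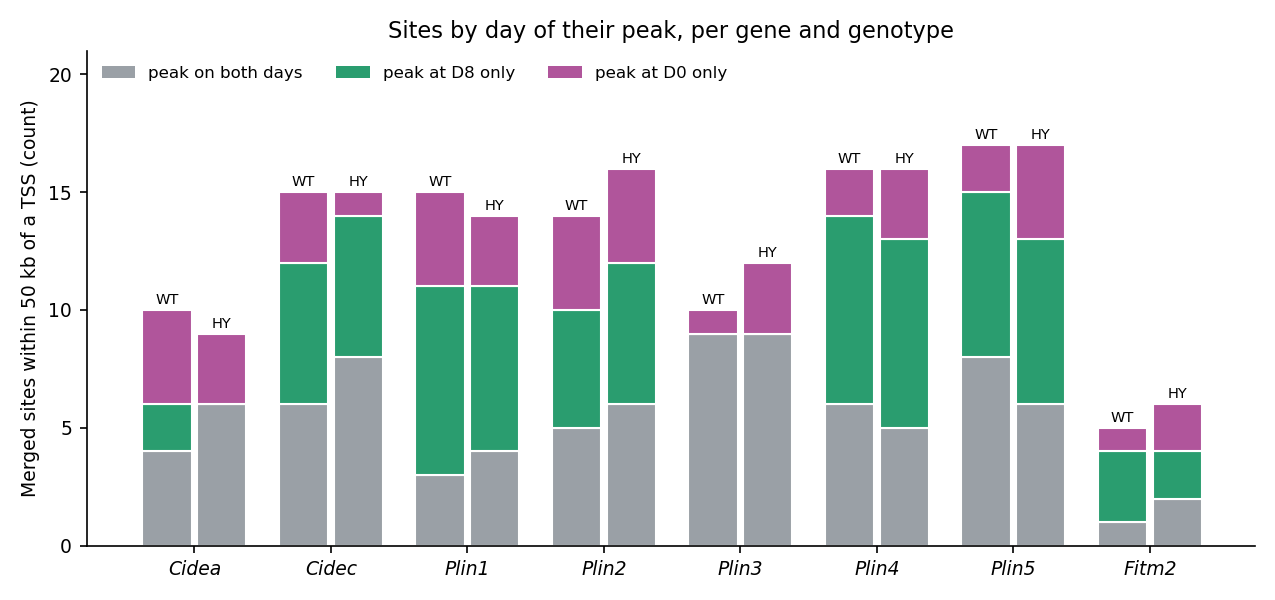
Number of merged sites within 50 kb of a TSS of each gene, with WT on the left and HY on the right of each pair of bars, stacked by whether the site had a peak on both days (grey), at D8 only (green) or at D0 only (purple). D8-only sites number 8 for Plin1 in WT and 0 for Plin3 in both genotypes, and sites shared by Plin4 and Plin5 are drawn for each of them.

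A promoter peak, with its summit between 1000 bp upstream and 100 bp downstream of a TSS, was found for each of the 8 genes in at least 1 library. It was present for 4 genes in WT D0, against 53.4% of coding genes, and for 7 in WT D8, against 49.5%. It was present for 5 genes in HY D0, against 54.3%, and for 6 in HY D8, against 50.4%. Plin1 and Cidec had promoter peaks at D8 only, in both genotypes, and Plin5 in WT D8 alone. Plin2, Plin3 and Plin4 had them throughout, and Cidea everywhere but in WT D0. Fitm2 was counted at D0 only, because the summit of its wide site lay farther inside the gene at D8.

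**Figure D2:**
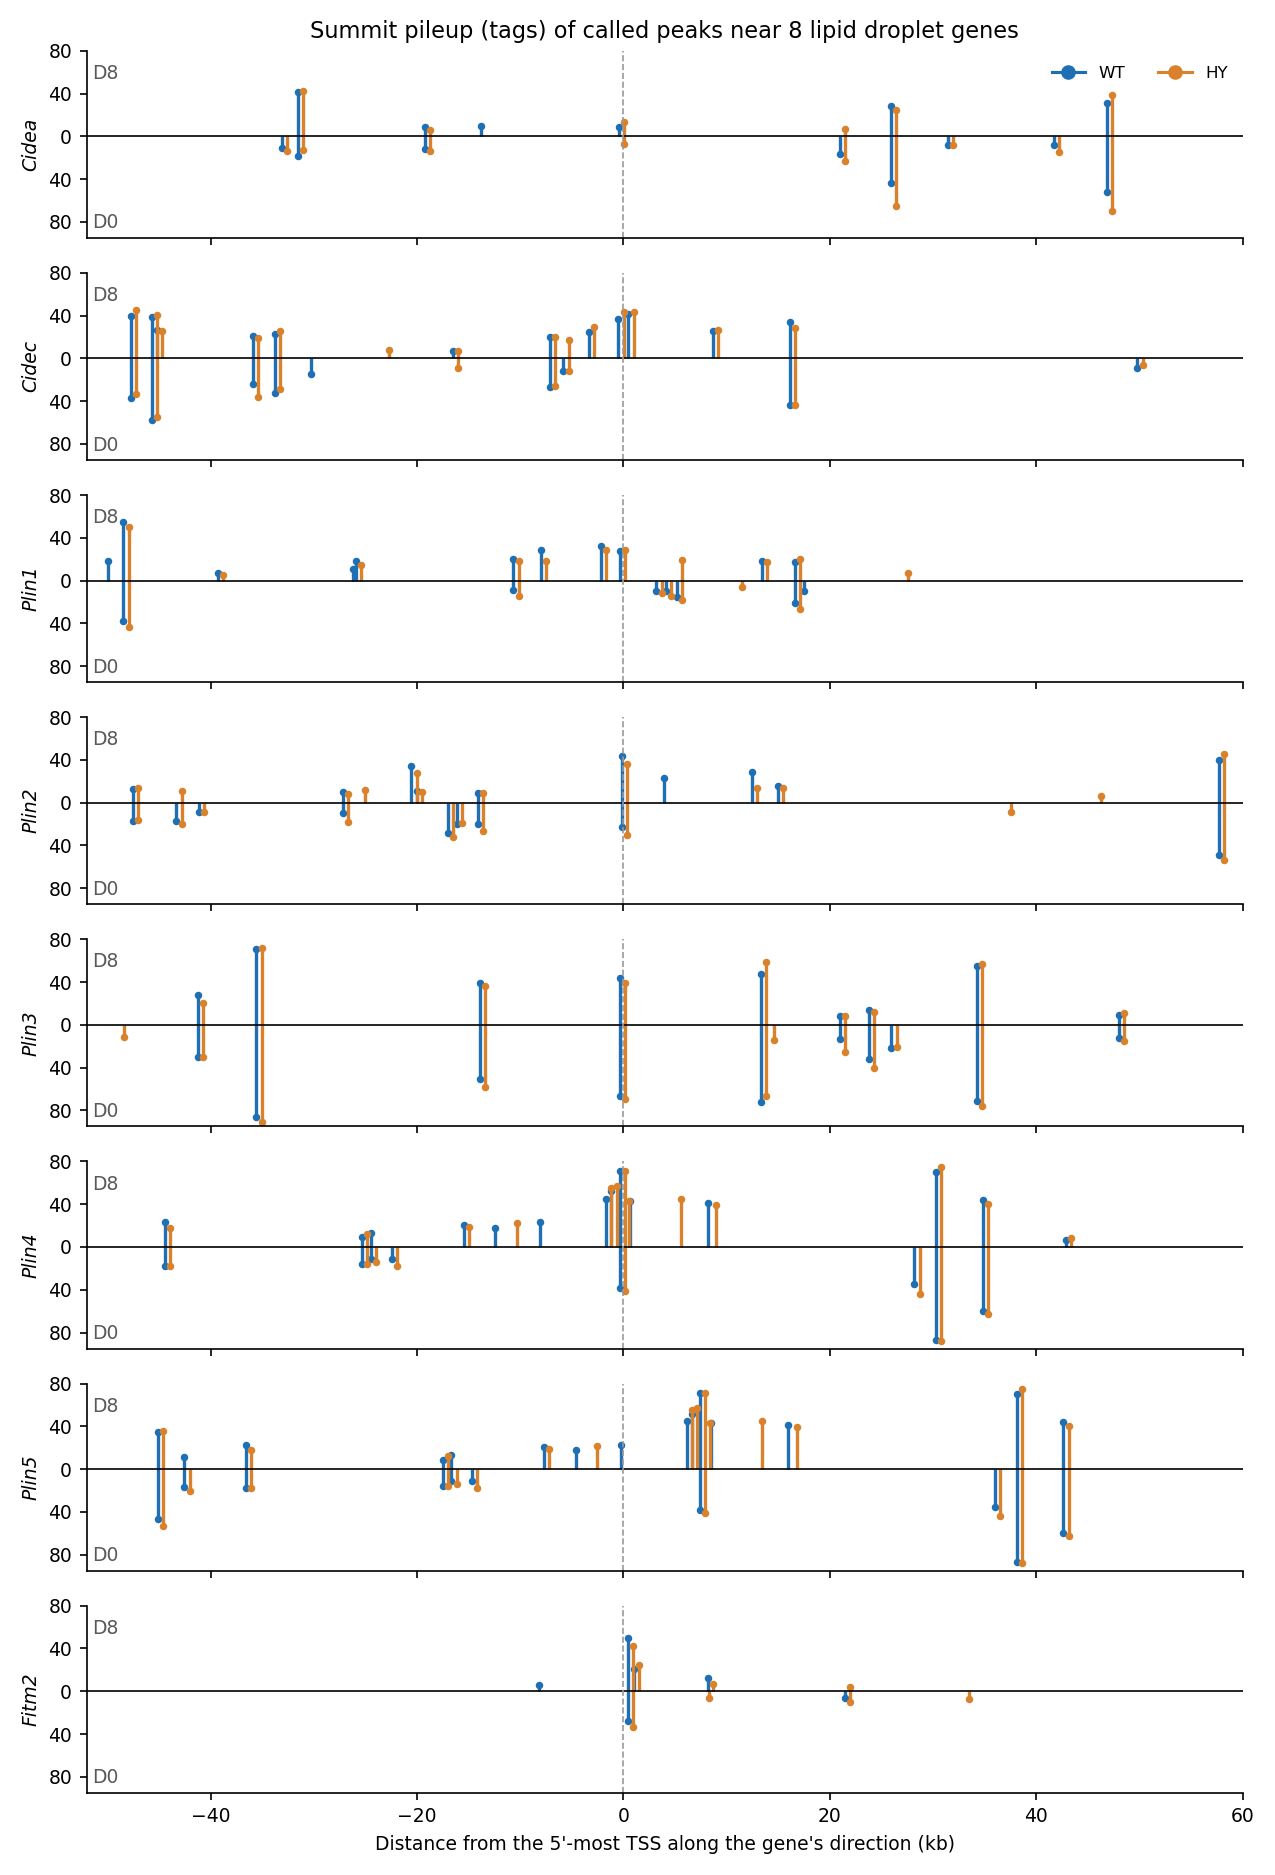
Summit pileup (tags, linear axis) of the called peaks near each gene against the distance of the site from the 5'-most TSS (kb), with D8 drawn upwards, D0 downwards, WT in blue and HY in orange (offset sideways by 0.25 kb each way for sight). Plin1 and Cidec have D8 peaks around the TSS and no D0 peak there, whereas most Plin3 sites reach in both directions.

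Plin1 (chr7:86866050-86877662, minus strand) encodes the main droplet coat of fat cells, which holds back basal lipolysis. Its promoter peak at -0.11 kb had a pileup of 28 at D8 in WT and 29 in HY, and a site at -1.91 kb had 32 and 29. Neither site had a D0 peak in either genotype. At the promoter, a pileup of 7 would have been listed in each D0 library with the background of its nearest peak, which lay 3432 bp away in WT and 3550 bp away in HY. The 10 kb around the promoter held 480 tags in WT D8 and 464 in HY D8, or 8.14 and 8.45 times the genome-wide rate.

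Upstream of Plin1, the -7.72 kb site, at a TSS of Pex11a, a gene of peroxisome division, had a D8 peak of 29 in WT and 18 in HY, and none at D0. The HY to WT ratio there was 0.667 (0.349 to 1.24) for the pileup and 0.811 (0.669 to 0.981) for the 10-kb tags. The -10.4 kb site, at the promoters of Wdr93 and Pex11a, was listed in every library, at 9 on D0 and 20 on D8 in WT and at 14 and 18 in HY. The -48.2 kb site in a Wdr93 intron went from 38 to 55 tags between D0 and D8 in WT and from 43 to 50 in HY, which after scaling is 1.80 times (1.17 to 2.79) and 1.67 times (1.09 to 2.56). With the deposited fold the direction turned, to 0.984 in WT and 0.766 in HY. Smaller shared D8 peaks stood at +13.6 kb (18 in WT, 17 in HY), -25.7 kb (18, 15) and -39.0 kb (7, 5).

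Inside Plin1, sites at +3.44 and +4.35 kb had 10 to 14 tags at D0 in both genotypes and no D8 peak. The intronic +5.44 kb site had D0 peaks in both genotypes and a D8 peak in HY. At +16.9 kb, behind the gene, the pileup was between 17 and 27 in the 4 libraries. The tags in the 10 kb around that site were 3.24 times as many at D8 as at D0 in WT (2.62 to 4.03) and 2.85 times in HY (2.34 to 3.50). The summit and its surroundings thus gave different values there. Single-genotype D8 peaks were listed at -26.0 kb (11 tags) and -49.7 kb (18 tags) in WT, and at +27.3 kb (7 tags) and +5.44 kb (19 tags) in HY.

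Plin4 (chr17:56240014-56249225, minus strand) encodes a perilipin of fat cells with a long repeated amphipathic region. Its promoter peak at -0.13 kb was the tallest D8 peak at a member's promoter, with a pileup of 38 at D0 and 71 at D8 in WT, and of 41 and 71 in HY. After scaling, D8 was 2.32 times D0 in WT (1.54 to 3.54) and 2.48 times in HY (1.67 to 3.74). The 10 kb around it held 281 tags at D0 and 1559 at D8 in WT, and 347 and 1807 in HY. These counts were 6.89 times as high at D8 in WT (6.06 to 7.85) and 7.46 times in HY (6.64 to 8.39). The HY to WT ratio of these tags at D8 was 1.25 (1.16 to 1.33), and 1.08 (1.01 to 1.16) scaled by promoter peaks. Of the sites with a peak on both days, 0.0219% of 27347 had a larger ratio in WT and 0.0273% of 32949 in HY. The deposited fold over background had the opposite order, since the local background was also higher at D8: its D8 to D0 ratio was 0.433 in WT and 0.409 in HY.

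Right upstream of Plin4, a site at -0.92 kb had a D8 pileup of 52 in WT and 57 in HY, and a site at -1.41 kb had 45 and 55. Neither had a D0 peak, where 9 would have been listed in WT and 10 in HY. Inside the gene, 5 sites had a D8 peak in 1 genotype only: +0.31, +5.37 and +8.76 kb in HY, with 43, 45 and 39 tags, and +0.93 and +8.41 kb in WT, with 43 and 41. They stood on local backgrounds of 16.4 to 22.7 tags, and their -log10 q was 1.79 to 5.19. At none of the 5 did the scaled lower bound reach the pileup needed at the background of the listed peak. With the background of the nearest peak of the other library it did so at +5.37 kb (35.3, where 33 was needed) and +0.31 kb (33.4, where 29 was needed), and not at the other 3.

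Farther from Plin4, the promoters of Ubxn6 (+35.1 kb) and Hdgfrp2 (+30.6 kb), with pileups of 40 to 63 and of 70 to 88, had D8 to D0 ratios between 0.909 and 1.22 and intervals that include 1. At +28.4 kb, in an intron of Hdgfrp2, D0 peaks of 35 in WT and 44 in HY had no D8 counterpart, and at -22.2 kb D0 peaks of 11 and 18 had none. A small shared D8 site lay at +43.1 kb (7 in WT, 8 in HY). The -44.1 kb site was listed in every library at 18 to 23 tags. The 10 kb around it held 142 tags in WT D8 and 85 in HY D8, a scaled ratio of 0.643 (0.486 to 0.847).

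Plin5 (chr17:56251024-56257019, minus strand) encodes the perilipin of oxidative tissues, which brings droplets to mitochondria. Its promoter peak at +0.01 kb had a pileup of 23 in WT D8 and was listed in no other library. Scaled to the depth of HY D8 this is 21.4 tags (13.6 to 32.1), where 12 would have been listed. At -2.80 kb, in an exon of Lrg1, HY D8 had a peak of 22, or 23.6 (14.8 to 35.8) at the depth of WT D8, where 13 would have been listed and no peak was. At -4.38 kb, at the Lrg1 promoter, WT D8 alone had a peak, of 18 tags. The next site upstream, at -7.44 kb in a Sema6b intron, was listed at D8 in both genotypes, with 21 in WT and 19 in HY, and not at D0.

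The Tnfaip8l1 promoter, -44.8 kb from Plin5, had 47 and 35 tags at D0 and D8 in WT and 53 and 36 in HY, with scaled ratios of 0.924 and 0.973. The -42.3 kb site had 17 at D0 and 11 at D8 in WT, and 20 at D0 only in HY. The WT ratio there was 0.803 (0.340 to 1.82), and the intervals at the promoter also include 1.

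Plin2 (chr4:86294290-86315964, minus strand, 8 annotated TSS) encodes the droplet coat of most cell types. Its promoter site at +0.14 kb was listed in every library, with 23 tags at D0 and 44 at D8 in WT and with 30 and 36 in HY. The scaled D8 to D0 ratio was 2.37 in WT (1.40 to 4.12) and 1.72 in HY (1.03 to 2.89). The direction turned with the deposited fold over local background, whose ratio was 0.789 in WT and 0.748 in HY. At D8 only, the gene body had peaks at +12.7 kb (29 in WT, 14 in HY) and +15.2 kb (16, 14). Next to an internal TSS, at +4.18 kb, WT D8 alone had a peak, of 23 tags, and its scaled lower bound was 13.6. HY D8 would have needed 15 at the background of that peak and 13 at the background of its own nearest peak, so that the outcome depends on the background taken.

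Upstream of Plin2, D0 and D8 sites lay side by side. The D8 pileup at -20.3 kb was 34 (WT) and 28 (HY), that at -19.8 kb 11 (WT) and 10 (HY), and neither site had a D0 peak, where 9 was needed. At -16.7 and -15.9 kb the D0 pileups were 28 and 20 in WT and 32 and 19 in HY, with no D8 peak where 7 was needed in WT and 6 in HY. At -13.8 kb every library had a peak, of 20 at D0 and 9 at D8 in WT and of 26 and 9 in HY. A D8 pair, a D0 pair and a site listed on both days thus followed each other towards the gene. Farther up, -40.9 kb had D0 peaks of 9 in both genotypes, -43.1 kb had 17 in WT D0, 20 in HY D0 and 11 in HY D8, and HY D8 alone had 12 tags at -25.2 kb. On the other side, HY D8 alone had 6 tags at +46.1 kb, and the Haus6 promoter at +57.9 kb, within reach of an internal TSS, had 40 to 54 tags.

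The 10-kb tag counts around Plin2 differed between the D8 libraries. The promoter window held 626 tags in WT D8 and 483 in HY D8, a scaled HY to WT ratio of 0.829 (0.735 to 0.935). The ratio was 0.703 (0.606 to 0.814) at +12.7 kb, 0.639 (0.492 to 0.827) at -13.8 kb and 0.748 (0.627 to 0.891) at -20.3 kb. Of 32039 sites with a D8 peak in both genotypes, whose median was 1.07, 93.3%, 98.7%, 99.6% and 97.5% had a higher ratio than these 4. At D0 the ratio was 1.22 (1.01 to 1.48) at the promoter and 1.10 (0.925 to 1.32) at -13.8 kb. At the outer Plin2 sites, at +57.9, -26.9 and -47.2 kb, it was 1.07 to 1.19 at D8. Scaled by promoter peaks instead, the 4 ratios were 0.554 to 0.718. Windows of neighbouring sites share tags, and the pileup ratios of the same sites had intervals that include 1.

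Plin3 (chr17:56418385-56429934, minus strand) encodes a perilipin found in most cells, which moves from the cytosol onto forming droplets. Its promoter site at -0.07 kb had 67 tags at D0 and 44 at D8 in WT and 69 and 39 in HY. The scaled ratio was 0.815 in WT (0.544 to 1.21) and 0.809 in HY (0.532 to 1.22), so that no difference between days was detectable at this depth. The promoters of its neighbours Fem1a (+34.5 kb), Ticam1 (+13.5 kb), Uhrf1 (-13.7 kb) and Kdm4b (-35.3 kb) had pileup ratios from 0.827 to 1.26, with intervals that include 1. The 10-kb tags were fewer at D8 in both genotypes, with intervals that exclude 1, at Ticam1 (0.854 in WT, 0.867 in HY) and Uhrf1 (0.846, 0.767). The median over all sites was 0.902 in WT and 0.885 in HY. Scaled by promoter peaks, the WT intervals included 1, at Ticam1 (0.918, 0.799 to 1.05) and Uhrf1 (0.909, 0.786 to 1.05). In HY these ratios were 0.877 (0.765 to 1.00) and 0.776 (0.674 to 0.891). An intronic Kdm4b site at -40.95 kb had 20 to 30 tags. Between Fem1a and Ticam1 the D8 values were lower: +24.04 kb had 32 at D0 and 14 at D8 in WT and 40 and 12 in HY, +21.2 kb had 13 and 8 and 25 and 8, and +26.2 kb had D0 peaks only, of 22 and 21. The scaled ratio at +24.04 kb was 0.543 in WT (0.268 to 1.05) and 0.430 in HY (0.205 to 0.835).

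Cidec (chr6:113374628-113385754, minus strand, 4 annotated TSS) encodes the protein that drives droplet fusion towards a large droplet. Its promoters had a pair of D8 sites, with 37 tags in WT and 43 in HY at -0.24 kb, and with 42 and 43 at +0.73 kb, at the TSS of shorter transcripts. Sites at +8.88 kb (26 in WT, 27 in HY), -3.10 kb (25, 29) and -45.0 kb (27, 26) had the same pattern. None of these 5 sites had a D0 peak, and at -3.10 kb a pileup of 7 would have been listed in either D0 library. The 10 kb around the -0.24 kb summit held 713 tags in WT D8 and 775 in HY D8, or 12.1 and 14.1 times the genome-wide rate. The HY to WT pileup ratios at the 5 sites were 1.03 to 1.25, with intervals that include 1. For the 10-kb tags these ratios were 1.16 to 1.18, and the intervals excluded 1 at 4 of the 5, as at -0.24 kb (1.17, 1.05 to 1.29), but not at +8.88 kb (1.16, 0.995 to 1.35). The median over all sites was 1.07, and scaled by promoter peaks the 5 ratios were 1.01 to 1.02.

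Between Cidec and Jagn1, the -5.57 kb site had 12 tags at D0 in each genotype and 17 at D8 in HY. WT D8 had no peak there, where 10 was needed against a scaled 18.3 (10.6 to 29.2). The promoters of Jagn1 (-6.83 kb), Rpusd3 (+16.4 kb), Il17rc (-35.7 kb) and Creld1 (-47.5 kb), and sites inside Il17re (-33.5 kb) and Il17rc (-45.4 kb), were listed in every library with 19 to 58 tags. Of these, the Creld1 promoter had a D8 to D0 pileup ratio whose interval excluded 1 in HY, at 1.95 (1.22 to 3.16), with 1.34 (0.836 to 2.16) in WT. For the 10-kb tags the D8 to D0 ratio excluded 1 at 4 of them in each genotype. It was 1.91 (1.56 to 2.34) for WT and 2.11 (1.74 to 2.56) for HY at Jagn1, and between 1.38 and 1.71 at Rpusd3, -45.4 kb and Creld1. At the far ends, +50.05 kb had D0 peaks of 9 in WT and 6 in HY, and -23.0 kb had 8 tags in HY D8 alone.

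Cidea (chr18:67503218-67527448, plus strand) encodes the CIDE protein of brown and beige fat. Its promoter site at -0.22 kb, which overlaps an exon of B430212C06Rik, was low, with 9 tags in WT D8, 7 in HY D0, 13 in HY D8 and no peak in WT D0. The HY to WT ratio at D8 was 1.55 (0.614 to 4.11). The tallest D8 site of the locus was at -31.3 kb, in an intron of Impa2, with 18 tags at D0 and 41 at D8 in WT and with 13 and 42 in HY. Its scaled D8 to D0 pileup ratio, 2.83 in WT (1.59 to 5.23) and 4.63 in HY (2.44 to 9.39), was the highest among the member sites with a peak on both days, in each genotype. For the 10-kb tags its ratio was 2.29 in WT and 2.42 in HY, below those of the Plin4 promoter. The deposited fold rose less, from 8.05 to 12.0 in WT and from 5.67 to 12.3 in HY. At -13.6 kb WT D8 alone had a peak, of 10 tags; scaled to HY D8 this is 9.31 (4.46 to 17.1), where 5 was needed.

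Downstream of Cidea the D0 libraries held the taller peaks before scaling to depth. The +26.2 kb site had 44 tags at D0 and 28 at D8 in WT and 65 and 25 in HY, and its scaled HY ratio was 0.551 (0.333 to 0.886), against 0.790 in WT, whose interval includes 1. For its 10-kb tags the WT ratio was 0.658 (0.536 to 0.805) and the HY ratio 0.429 (0.348 to 0.525). Inside the gene, at +21.2 kb, the D0 peaks were 17 and 23, and HY D8 alone had a D8 peak, of 7. The Tubb6 promoter at +47.1 kb had 52 and 31 tags at D0 and D8 in WT and 70 and 39 in HY. Its scaled pileup ratios, 0.740 (0.458 to 1.18) in WT and 0.798 (0.525 to 1.20) in HY, have intervals that include 1. Those of its 10-kb tags, 0.683 (0.593 to 0.786) and 0.622 (0.544 to 0.711), exclude 1. D0-only peaks of 8 to 15 tags stood at -32.9, +31.7 and +41.9 kb in both genotypes.

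Fitm2 (chr2:163292115-163298365, minus strand) encodes an endoplasmic reticulum protein that acts when droplets form. A wide site over its TSS, with the leading summit at +0.67 kb in the intron and in the promoter of 2310001K24Rik, had 28 tags at D0 and 50 at D8 in WT and 33 and 42 in HY. The scaled D8 to D0 ratio was 2.22 in WT (1.37 to 3.66) and 1.82 in HY (1.13 to 2.97), and that of the 10-kb tags was 3.12 (2.62 to 3.72) and 3.16 (2.68 to 3.74). The D0 summits lay nearer the TSS than the D8 summits, so these ratios compare the tallest points of the site and not the same position. The deposited fold turned the direction, with 0.907 for WT and 0.708 for HY. A second intronic site at +1.27 kb had D8 peaks of 21 in WT and 25 in HY and no D0 peak, where 7 was needed in WT and 8 in HY. At +8.44 kb D8 peaks of 12 and 7 were listed without a D0 peak. Single-genotype D8 peaks had 4 tags at +21.7 kb in HY and 6 at -7.91 kb in WT.

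Over the member sites with a peak on both days, the median scaled D8 to D0 pileup ratio was 0.954 for 36 sites in WT, against 0.896 for all sites, and 1.07 for 41 sites in HY, against 0.884. In WT, 5 of 36 were at least 2-fold higher at D8, against 4.78% of all sites: Cidea -31.3 kb, Plin1 -10.4 kb, Plin2 +0.14 kb, Plin4 -0.13 kb and Fitm2 +0.67 kb. Each of these 5 also had a ratio above 1 in HY, but with the deposited fold only Cidea -31.3 kb was higher at D8 in HY. In HY, 4 of 41 were at least 2-fold higher, against 5.27%. At least 2-fold lower were 0 of 36 in WT (exact upper bound 9.74%), against 14.7% of all sites, and 4 of 41 in HY, against 17.2%. These counts depend on the scaling. Without it, 2 sites were higher and 2 lower in WT, and 1 higher and 8 lower in HY. With the deposited fold in place of the pileup, 0 were higher and 2 lower in WT, and 1 higher and 3 lower in HY. For the 10-kb tags, 7 of 36 in WT were at least 2-fold higher, against 3.01%, and 10 of 41 in HY, against 3.14%. Both counts include Plin1 -10.4 kb (4.13 in WT, 3.12 in HY), whose D0 tags stood at the genome-wide rate and were not counted. At least 2-fold fewer tags were found at 0 sites in WT, against 11.0%, and at 4 in HY, against 12.3%.

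**Figure D3:**
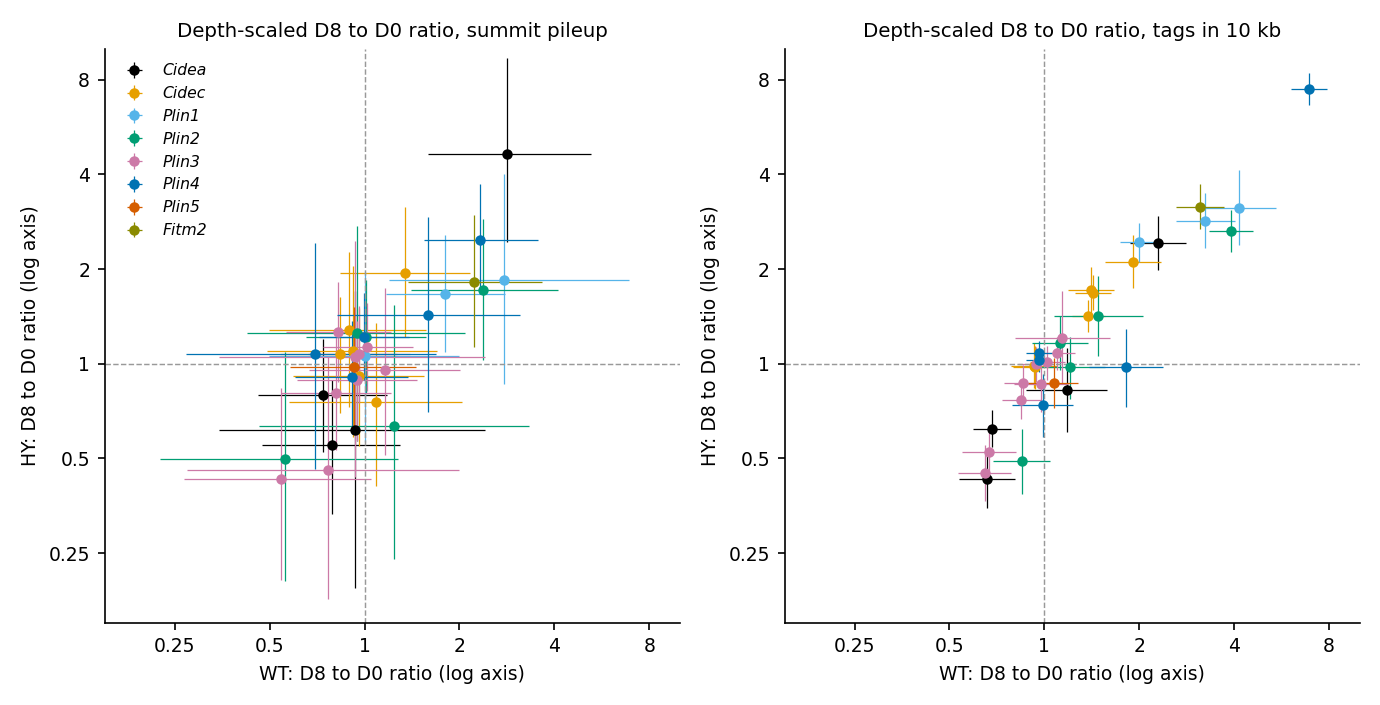
Scaled D8 to D0 ratio in WT (horizontal) against HY (vertical), both on log axes, at the 34 sites with a peak in all 4 libraries, for the summit pileup (left) and the tags in 10 kb (right), with exact 95% intervals for counting error as bars. For tags in 10 kb the Plin4 promoter lies at 6.89 and 7.46, while no Plin3 site lies above 1.21; sites shared by Plin4 and Plin5 take the Plin4 colour.

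**Figure D4:**
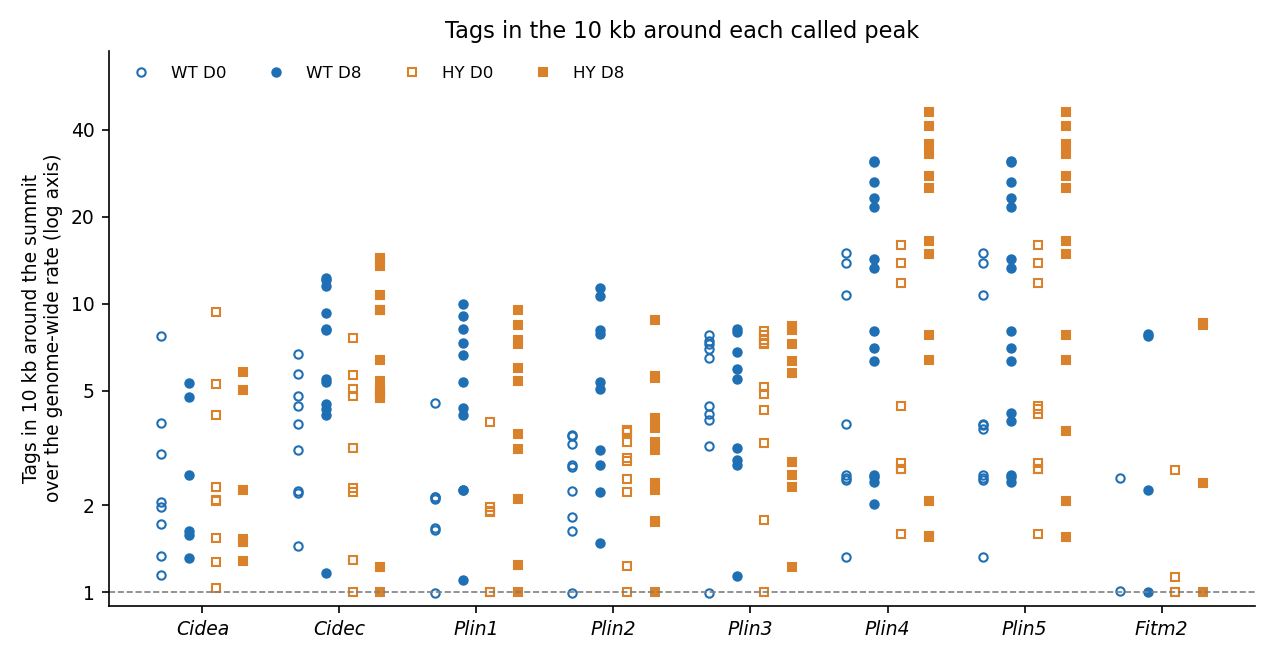
Tags in the 10 kb around each called peak divided by the genome-wide rate of the library (log axis), by gene, with D0 as open and D8 as filled symbols, WT as circles and HY as squares; the dashed line is the genome-wide rate. In the Plin4 window the values reach 31.2 in WT D8 and 45.9 in HY D8, inside the gene, whereas the highest D0 values, 15.0 in WT and 16.0 in HY, are at the Hdgfrp2 promoter.

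The D8 pileups were then compared between the genotypes. Of 57 member sites with a D8 peak in both, 0 were at least 2-fold higher in HY, against 1.68% of all sites, and 0 at least 2-fold lower, against 0.512%, each with an exact upper bound of 6.27%. These shares are near those of all sites. When scaled by promoter peaks, or not scaled, 1 site was at least 2-fold lower in HY. The median HY to WT ratio was 1.07, against 1.11 for all sites. Of 81 sites with a D8 peak, 13 (16.0%) had it in HY only, against 26.3% of all sites, and 11 (13.6%) in WT only, against 9.53%. Which genotype had more depends on the lists. With lists of equal length, WT-only sites numbered 16 (21.1%, against 14.9% of all sites) and HY-only sites 8 (10.5%, against 18.2%). At a -log10 q of at least 5 they numbered 9 (15.0%, against 11.8%) and 7 (11.7%, against 19.1%). Of the 34 sites with a peak in all 4 libraries, 12 had D8 to D0 pileup ratios on opposite sides of 1 in the genotypes, against 22.9% of all such sites, and the intervals of these 12 include 1 in both genotypes. At D0, 8 of 63 sites were listed in HY only, against 21.7%, and 2 in WT only, against 12.1%.

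Of the 24 single-genotype D8 sites, 4 had a scaled lower bound that reached the pileup needed in the other library at the background of the listed peak. They were the Plin5 promoter, listed in WT, and Plin5 -2.80 kb, Cidec -5.57 kb and Plin1 +5.44 kb, listed in HY. The Plin1 +5.44 kb site, in an intron, had 15 tags in WT D0, 18 in HY D0 and 19 in HY D8. WT D8 would have needed 11 there, against a scaled 20.4 (12.3 to 31.9). With the background of the nearest peak of the library without the peak, which 17 of the 24 sites allowed, 8 reached it. These were the first 3 of the 4 sites and Plin2 +4.18 and -25.2 kb and Plin4 +5.37, +0.31 and -24.2 kb. The Plin1 +5.44 kb site had no such peak within 5 kb.

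**Figure D5:**
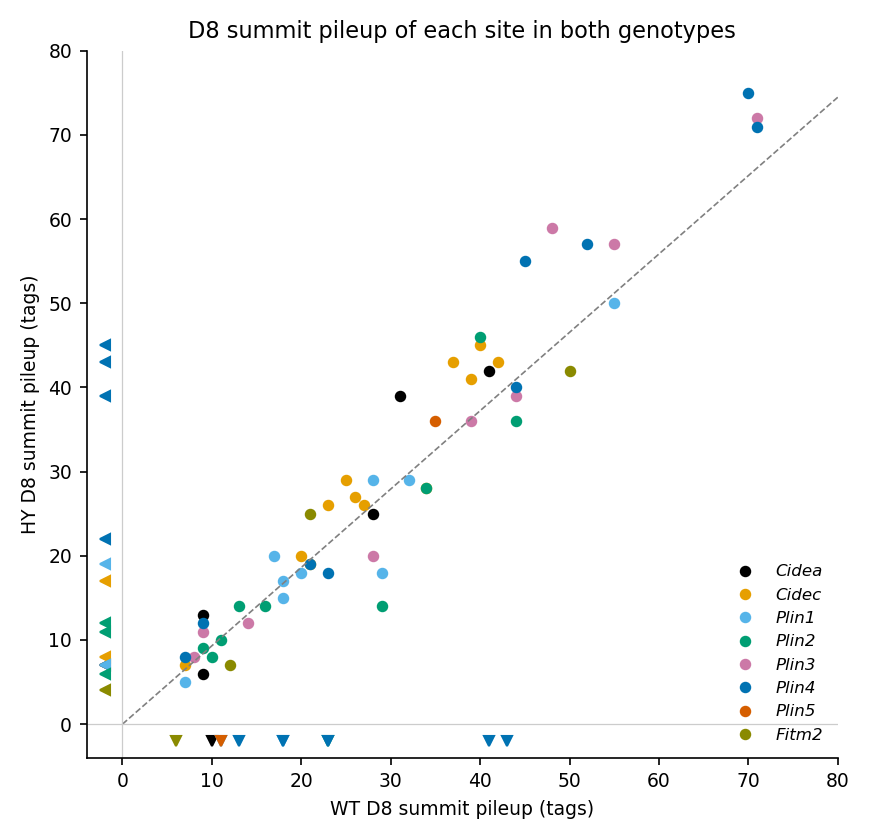
Summit pileup (tags) in WT D8 (horizontal) and HY D8 (vertical) of the 81 sites with a D8 peak; triangles in the margins are sites with no peak in the other genotype, and the dashed line has the slope of the ratio of background rates. The single-genotype peaks of 39 to 45 tags are in the Plin4 gene, and sites shared by Plin4 and Plin5 take the Plin4 colour.

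Motif letters were counted within 100 bp of each summit. C/EBP matches were found at 15 of 101 member sites (14.9%), against 11.4% of all sites, at 6 of the 21 shared D8-only sites (28.6%), against 27.0% of the genome's, and at 3 of the 12 shared D0-only sites, against 8.82%. AP-1 matches were found at 16 member sites (15.8%), against 22.0%, among them 6 of the 12 shared D0-only sites, against 31.9% of the genome's, and 2 of the 21 shared D8-only sites, against 7.06%. EBF was found at 16 (15.8%), against 9.76%, and the NFI site at 14 (13.9%), against 16.2%. The NFI site was found at 3 of the shared D8-only sites (14.3%), against 27.5% of the genome's, and at 3 of the shared D0-only sites, against 15.7%. The PPARG:RXR DR1 consensus, searched as an exact match, was found at 0 member sites and at 0.412% of all sites. In the genome it was found at 1.06% of shared D8-only sites and 0.286% of shared D0-only sites. With so rare a match, 0 of 101 sites cannot show whether the members differ from the genome. Matches of different motifs overlapped at 1 member site. The median GC content of the windows was 51.2% at shared D8-only sites and 58.0% at sites with a peak in all 4 libraries, against 49.8% and 57.2% for the genome's.

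Of 22 other genes of droplet formation, lipolysis and the droplet surface, 17 (77.3%) had a D8-only site in WT, against 38.5% of coding genes, and 18 (81.8%) in HY, against 43.8%. Most of the 22 genes also had more sites of any kind than the median coding gene, with up to 25 (Pnpla2 and Agpat2) against 7. More sites give more room for a D8-only site, and the shares were not adjusted for this. Dgat2, which makes triacylglycerol, and Agpat2, which acts earlier in that pathway, had the most D8-only sites of the list, each with 8 in WT and 7 in HY. Hsd17b11, Pcyt1a and Aup1, whose products are found on droplets, had no D8-only site in either genotype. A D0-only site was found near 18 of the 22 genes in WT, against 75.7% of coding genes, and near 20 in HY, against 78.1%. Promoter peaks were found for 18 of the 22 genes at D0 and 20 at D8, in WT as in HY, where 49.5% to 54.3% of coding genes had one. The genes were not all the same at D8: G0s2 had 34 tags in WT and no peak in HY, and Cideb 8 tags in HY and no peak in WT.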

How the data were processed

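ATAC-seq peak lists of 4 im-scWAT libraries (1 per group, grouped by GEO's labels) were used. The authors aligned reads to mm9 and deposited 1 peak list per library; Bowtie2, SAMtools, Picard and deepTools are named in the submitters' processing notes, and MACS3 in the study's methods for ChIP-seq. Versions, the calling threshold and the Tn5 shift are not given in the sources used here. The deposited fold over local background is a ratio. The deposited -log10 p and -log10 q are those of the summit, the deposited score column was not used, and the deposited summit offset placed each peak.

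Pileup and local background were solved from fold and -log10 p, within 0.002 of the deposited value for 100% of peaks, with Python 3.11.15, numpy 2.4.6 and scipy 1.17.1. Backgrounds above the genome rate were whole multiples of 0.009 (tolerance 0.1 of a step) in every peak checked, as 90-bp tags counted over 10 kb give; this window is read from the values. Recovery was tested on simulated peaks. The annotation was GENCODE M1. Shares and ratios carry exact (Clopper-Pearson) 95% intervals. Sites named are promoter sites, those with at least 20 tags in a library, day-specific sites shared by both genotypes and single-genotype D8 sites. The members and lists were chosen with earlier results of these data known. Alternatives covered overlap, -log10 q, list length, window, TSS set, scaling and motif window.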

Additional observations from a re-analysis of the deposited data

Results flagged for a closer look

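Between the genotypes, 15 member sites had a D8 to D0 pileup ratio on opposite sides of 1, or a ratio above 1 in one genotype and a D0 peak only in the other; 12 of them had peaks in all 4 libraries, or 35.3% of the 34 such member sites, against 22.9% of all such sites. At each of these 12 the intervals of both ratios include 1. With 1 library per group none of these differences was tested. In the Plin4 window the WT and HY ratios were 0.999 and 1.22 at +30.56 kb and 0.698 and 1.07 at -25.04 kb, and the -24.21 kb site had 1.47 in WT and a D0 peak only in HY. Near Plin3 they were 0.931 and 1.05 at +48.22 kb, 0.962 and 1.07 at +34.48 kb, 0.827 and 1.26 at +13.54 kb, and 1.16 and 0.955 at -40.95 kb. Near Plin2 they were 1.24 and 0.636 at -26.93 kb, and 0.949 and 1.25 at -47.25 kb.

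Near Cidec the ratios were 0.919 and 1.10 at -6.83 kb, 0.892 and 1.28 at -33.53 kb, 1.09 and 0.756 at -35.67 kb, and 0.835 and 1.07 at -45.44 kb. The Cidec -5.57 kb and Plin1 +5.44 kb sites had D0 peaks only in WT and ratios of 2.03 and 1.51 in HY.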

How the results depend on the processing

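No paired analysis was possible because each group had 1 library. With windows of 10 kb the peaks numbered 79 and the sites 35, and with 100 kb 442 and 155. D8-only sites within 10 kb numbered 21 in WT (70.0%, against 12.1% of all sites) and 18 in HY (62.1%, against 13.7%). At -log10 q of at least 5 they numbered 18 in HY (25.4%, against 11.8%). D0-only sites numbered 37 in WT (59.7%, against 73.9%) and 35 in HY (56.5%, against 72.6%) where 50% cover was asked (counted in peaks). With lists of equal length they numbered 7 (9.33%, against 31.7%) and 8 (11.8%, against 30.2%). Within 10 kb they numbered 4 (13.3%, against 52.7%) and 3 (10.3%, against 49.3%). Within 100 kb they numbered 35 (26.1%, against 52.7%) and 35 (25.7%, against 49.3%). HY-only D8 sites numbered 26 with 50% cover (31.7%, against 39.6% of all) and 7 at -log10 q of at least 5 (11.7%, against 19.1%). They numbered 8 with lists of equal length (10.5%, against 18.2%) and 6 within 10 kb (18.8%, against 26.3%). WT-only D8 sites under the same settings numbered 14 (17.1%, against 18.4%), 9 (15.0%, against 11.8%), 16 (21.1%, against 14.9%) and 6 (18.8%, against 9.53%). HY-only D0 sites numbered 14 with 50% cover, 4 with equal lists, 2 within 10 kb and 17 within 100 kb, and WT-only D0 sites 9 with summits joined within 250 bp, 0 within 10 kb and 9 within 100 kb. Shares over all sites were not computed for these D0 counts. The median D8 to D0 ratio without scaling was 0.769 in WT and 0.750 in HY, and with the MACS fold 0.905 and 0.827; the median HY to WT ratio at D8 scaled by promoter peaks was 0.931. The MACS fold divides by the local background. Among sites whose pileup interval excluded 1, it turned the direction at Plin4 -0.13 kb (0.433 in WT, 0.409 in HY), Fitm2 +0.67 kb (0.907, 0.708), Plin2 +0.14 kb (0.789, 0.748) and Plin1 -48.19 kb (0.984, 0.766). It also turned at sites whose interval included 1. Examples in HY are Plin1 -10.4 kb (fold 8.78 at D0, 7.46 at D8) and Plin1 +5.44 kb (7.93, 5.07). Within 50 bp of the summit C/EBP was found at 8 sites, EBF at 9, the NFI site at 7 and AP-1 at 8. Sites could not be counted with 50% cover, which gives peaks. In the alternatives run, the WT number of members with a D8-only site was 7 to 8 and the HY number 6 to 8. The number of single-genotype D8 sites whose lower bound reached the needed pileup was 8 with the background of the other library's nearest peak, an alternative chosen after seeing the data. Depth limits the calls: at the background rate, 4 to 5 tags were needed.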
